A study of Mus musculus with 12 samples.

Results

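Neurotransmitter release depends on a set of presynaptic proteins that fill synaptic vesicles, hold them at the release site, fuse them with the plasma membrane and couple fusion to calcium. The RNA of 38 genes of this machinery, out of 24480 genes in the count tables, was examined in the dorsal lateral geniculate nucleus (dLGN), the thalamic relay of visual information, of newborn mice. Members were selected by gene symbol, and all 38 symbols were present in the tables of both lines. They were grouped for description into loading (7 genes), docking and priming (14), fusion (9) and calcium sensing (8). The loading group takes in the vesicle membrane proteins SV2 and synaptophysin beside the glutamate transporters. Calcium sensing takes in every synaptotagmin of the list, whether or not it acts as a sensor.

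RNA-seq comprised 12 libraries in 4 groups of 3, each library made from dLGNs of 3 animals of the same genotype pooled at P0, the day of birth. *Sox2* mutants were Sox2flox/flox;Ror-alphaCre, and their controls were Sox2flox/flox or Sox2flox/+ without Cre. *Nr2f1* mutants were Nr2f1 flox/flox;Ror-alphaCre, and their controls, whose label names that allele and also the absence of Cre, were littermates with floxed alleles and no Cre, as the methods describe. Cre was expressed from the *Rora* locus, into whose 3′ end it had been inserted, and deletes the floxed gene in postmitotic cells of the sensory thalamus. All mutants carried Cre and all controls lacked it, so that the effects of the deletion and of the Cre allele cannot be told apart. The libraries are named here as in the tables (CTRL_1, CTRL_2 and CTRL_3 against MUT_1, MUT_3 and MUT_4 for *Sox2*, and CTRL_B, CTRL_D and CTRL_E against MUT_A, MUT_B and MUT_C for *Nr2f1*).

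SOX2 is a transcription factor with an HMG box and NR2F1 (COUP-TF1) is an orphan nuclear receptor, and both are present in dLGN neurons. Relay neurons of the thalamus use glutamate as transmitter. VGLUT2, encoded by *Slc17a6*, loads it into their vesicles, whereas VGLUT1, encoded by *Slc17a7*, is the main transporter of cortical and hippocampal neurons. Vesicles are clustered by synapsins, tethered by Rab3 and RIM proteins at an active zone scaffolded by Bassoon and Piccolo, and primed by Munc13 proteins. Fusion is carried out by SNAP25, syntaxin and synaptobrevin, is held and assisted by complexins, and is triggered when calcium binds synaptotagmins.

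Among 15602 genes tested in *Sox2* mutants, edgeR's quasi-likelihood test called 4.19% downregulated and 3.90% upregulated at a false discovery rate (FDR, Benjamini-Hochberg) under 0.01, and of the 38 members 5 were downregulated and 2 upregulated. In *Nr2f1* mutants the corresponding background was 1.32% and 1.22% of 15600 genes, and 4 members were downregulated and 1 upregulated. The difference between the effects of both deletions was tested as the interaction of line and genotype over the 12 libraries, in which 1.44% of 15989 genes and 3 members passed. All 38 members passed the filter on low counts in each of these tests. Each of these counts rests on a handful of genes, and the members are described one by one.

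The proximal promoters of 4 members are shown because these genes carry the main differences described below. *Slc17a6* and *Syt1* were the members with the smallest FDR in *Sox2* mutants, *Stxbp6* had the smallest FDR in *Nr2f1* mutants, and *Sv2b* differed between the lines. Each window runs 5′ to 3′ on the strand of the gene from 250 bases before to 50 bases after an annotated RNA start (RefSeq, GRCm38.p6). It was searched on both strands for ACAATG, a core sequence bound by SOX proteins, and AGGTCA, a half-site bound by nuclear receptors, and matches are in capitals. The windows lie at chr7:51621580-51621879 (plus strand) for *Slc17a6*, chr10:109009062-109009361 (minus strand) for *Syt1*, chr12:45074434-45074733 (minus strand) for *Stxbp6* and chr7:75219970-75220269 (minus strand) for *Sv2b*.
Slc17a6: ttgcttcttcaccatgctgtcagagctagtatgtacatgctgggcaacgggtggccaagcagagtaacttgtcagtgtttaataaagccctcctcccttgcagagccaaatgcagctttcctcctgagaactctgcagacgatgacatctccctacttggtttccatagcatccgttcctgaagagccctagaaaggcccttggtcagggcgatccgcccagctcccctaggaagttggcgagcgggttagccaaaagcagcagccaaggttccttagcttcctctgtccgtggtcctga
Syt1: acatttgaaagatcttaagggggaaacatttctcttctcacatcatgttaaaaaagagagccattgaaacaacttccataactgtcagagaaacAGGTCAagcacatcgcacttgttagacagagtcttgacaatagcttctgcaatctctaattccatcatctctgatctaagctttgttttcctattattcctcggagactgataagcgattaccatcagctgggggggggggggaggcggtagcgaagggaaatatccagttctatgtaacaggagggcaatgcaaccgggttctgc
Stxbp6: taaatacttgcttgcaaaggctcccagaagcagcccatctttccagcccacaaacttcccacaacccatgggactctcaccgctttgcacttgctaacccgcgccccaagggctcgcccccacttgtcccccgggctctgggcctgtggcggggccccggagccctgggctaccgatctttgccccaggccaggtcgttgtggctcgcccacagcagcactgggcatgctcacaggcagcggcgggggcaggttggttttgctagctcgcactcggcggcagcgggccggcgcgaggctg
Sv2b: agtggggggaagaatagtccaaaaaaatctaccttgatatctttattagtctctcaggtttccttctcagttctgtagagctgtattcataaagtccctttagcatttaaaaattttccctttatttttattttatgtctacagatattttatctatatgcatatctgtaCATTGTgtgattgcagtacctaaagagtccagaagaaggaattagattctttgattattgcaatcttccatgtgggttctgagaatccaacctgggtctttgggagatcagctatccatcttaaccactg
The *Syt1* window, the second of 2 listed for this gene, held AGGTCA at position 95, and the *Sv2b* window, the last of 4, held ACAATG on the opposite strand, read as CATTGT, at position 171. The *Slc17a6* and *Stxbp6* windows held neither sequence. For *Syt1* and *Sv2b* the window shown was picked because it holds a match, and the other windows of these genes held neither sequence. The *Sv2b* window shown lies well inside the gene, at its most downstream listed start. Promoter windows were found for 31 of the 38 members, 42 in all. ACAATG occurred in 3 of these 42 windows, of 3 members (*Sv2a*, *Sv2b* and *Vamp1*), and 12.6% of all 32851 windows held it. AGGTCA occurred in 6 of the 42 windows, of 5 members (*Cplx3*, *Stxbp5l*, *Syt1*, *Syt2* and *Syt6*), and 16.3% of all windows held it. The windows of the members had a median GC content of 61.7%, and all windows had one of 52.7%. A match of 6 letters is a description of the window and does not show binding.

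Total counts lay between 39293465 and 50095344 per library. The targeted genes were checked first. *Sox2* lay between 361 and 382 CPM (counts scaled to library size, with TMM normalization within each line) in its controls and between 116 and 152 in *Sox2* mutants, and *Nr2f1* lay between 311 and 380 in its controls and between 101 and 151 in *Nr2f1* mutants. Markers of neurons and of thalamic glutamatergic neurons were abundant in every library, with sums of at least 11475 and 2272 CPM. Markers of other cells were also present. The 10 microglial genes summed to 144 ± 6.69 CPM in *Sox2* controls and 309 ± 22.2 in *Sox2* mutants, and 9 of the 10 were upregulated. Of the 10 astrocyte genes 6 were upregulated in *Sox2* mutants, whose sum was 154% of that in controls. The sum of the 10 meningeal fibroblast genes varied within groups, from 1039 to 2005 CPM in *Sox2* controls and from 1164 to 2600 in *Nr2f1* mutants. Male-specific genes were at 0 CPM in MUT_A of the *Nr2f1* line and *Xist* was below 1 CPM in *Sox2* CTRL_2, *Sox2* MUT_1 and *Nr2f1* CTRL_E, so that the pools differed in the sexes they held. In RNA of whole tissue, fewer cells of a type and less RNA per cell cannot be told apart.

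In the 6 control libraries the members spanned a wide range of levels per length of transcript. *Vamp2*, encoding synaptobrevin 2, the main vesicle SNARE, was at 299 ± 14.2 CPM per kb (SD, n = 6) and *Syt7*, encoding a slow synaptotagmin of high calcium affinity, at 297 ± 21.9, and their ranges over the control libraries overlapped. *Rab3a*, encoding the vesicle GTPase that binds RIM, followed at 202 ± 10.7 CPM per kb and *Syp*, encoding synaptophysin, at 190 ± 13.4. The ranges of these 2 genes also overlapped. *Syt1*, the fast calcium sensor, came next at 153 ± 18.3 CPM per kb. At the other end, *Slc17a8* (VGLUT3, 0.139 ± 0.0671 CPM per kb), *Cplx3* (0.188 ± 0.0644) and *Syt2* (0.239 ± 0.0577) were barely detected. *Slc17a6* was at 57.7 ± 7.35 CPM per kb and *Slc17a7* at 2.28 ± 0.500. These levels use the median length of annotated transcripts and move with the isoform that is expressed.

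**Figure D1:**
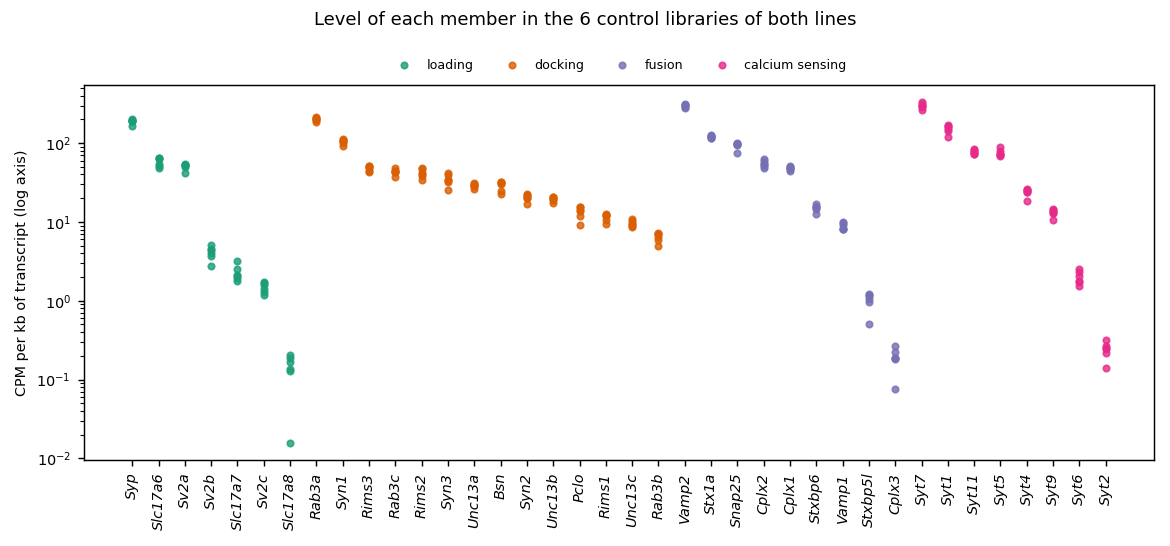
Level of each of the 38 members in each of the 6 control libraries (points), in CPM per kb of transcript on a log axis, ordered by step and by mean. Levels span from below 1 CPM per kb for Slc17a8, Cplx3 and Syt2 to 299 for Vamp2.

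Of the 7 loading genes, *Slc17a6* fell and *Slc17a7* rose in *Sox2* mutants, and *Sv2b* fell in *Nr2f1* mutants. *Slc17a6* (chr7:51621830-51671126) was at 271, 223 and 199 CPM in the 3 *Sox2* controls and at 122, 119 and 116 CPM in the 3 *Sox2* mutants. The mutants lay close to each other and below every control, at 51.4% of controls, a log2 fold change of -0.96 (SE 0.10, FDR = 0.000336). Among *Nr2f1* libraries *Slc17a6* was at 265, 214 and 261 CPM in controls and at 258, 252 and 208 CPM in mutants, so that the groups overlapped (log2 fold change -0.04, SE 0.10, FDR = 0.836). Subtracting the change in the *Nr2f1* line from that in the *Sox2* line gave -0.91 on the log2 scale (SE 0.16, interaction FDR = 0.00467). This difference passed without 2 of the 12 libraries in turn and had an FDR between 0.0101 and 0.0196 without each of the other 10.

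*Slc17a7* (chr7:45163921-45176139), the VGLUT1 gene, was a minor transporter in all groups. It was at 9.23, 7.43 and 6.07 CPM in *Sox2* controls and at 25.1, 12.7 and 16.1 CPM in MUT_1, MUT_3 and MUT_4. All mutants lay above all controls, and they differed among themselves more than the controls did. The log2 fold change was 1.24 (SE 0.24, FDR = 0.00726). Per length of transcript, *Slc17a7* made up 4.41% ± 0.240 of the transcripts of the 3 vesicular glutamate transporters in *Sox2* controls and 17.3% ± 4.69 in *Sox2* mutants (SD, n = 3), and *Slc17a6* made up 95.4% ± 0.341 and 82.2% ± 4.82. The share of *Slc17a7* in the *Nr2f1* line was 3.20% ± 0.432 in controls and 2.94% ± 0.545 in mutants. *Slc17a7* was at 6.16, 5.70 and 5.26 CPM in those controls and at 4.32, 5.98 and 4.95 CPM in those mutants, which overlapped (log2 fold change -0.17, SE 0.15, FDR = 0.544).

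Markers of pallial and hippocampal neurons were read beside *Slc17a7*. The 10 genes of that list, among them *Neurod6*, *Tbr1* and *Emx1*, summed to 72.4, 53.7 and 36.7 CPM in *Sox2* controls and to 198, 62.7 and 118 CPM in MUT_1, MUT_3 and MUT_4. Within the *Sox2* controls and within the *Sox2* mutants the libraries took the same order for this sum and for *Slc17a7*, and no gene of the list was at 0 in any library. Across these groups the order was not kept, since MUT_3 had a lower sum than CTRL_1 and a higher level of *Slc17a7*. In the *Nr2f1* line the sums were 50.8, 50.6 and 39.1 CPM in controls, in the order of *Slc17a7*, and 47.4, 39.7 and 61.9 CPM in MUT_A, MUT_B and MUT_C, of which MUT_B had the lowest sum and the highest *Slc17a7*. With the mean of the list as a covariate, an alternative added once the data had been seen, the log2 fold change of *Slc17a7* in *Sox2* mutants was 0.58 (edgeR FDR = 0.0186) and that of *Slc17a6* remained past the threshold. The part of these cells in the level of *Slc17a7* was not tested further. The call of *Slc17a7* was also lost without CTRL_1, CTRL_2, CTRL_3 or MUT_4 (FDR up to 0.0345).

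**Figure D2:**
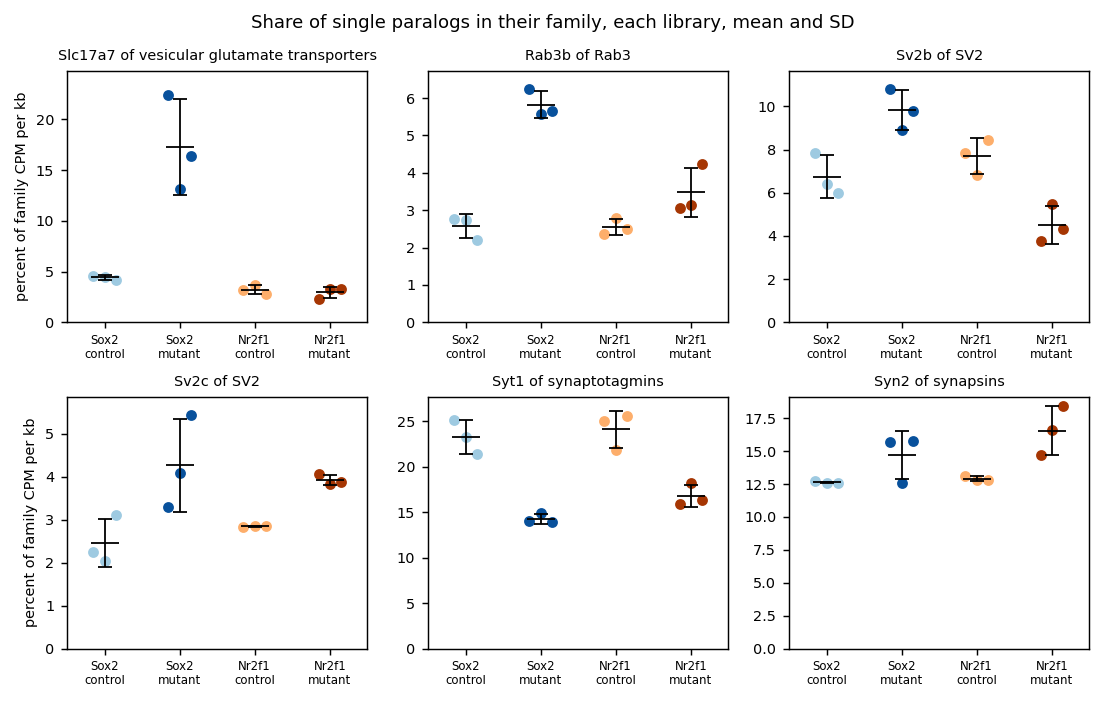
Share of single genes in the summed CPM per kb of their family (percent) in each library (points), with mean and SD, for Slc17a7 among vesicular glutamate transporters, Rab3b among Rab3 genes, Sv2b and Sv2c among SV2 genes, Syt1 among the 8 synaptotagmins and Syn2 among synapsins. The share of Slc17a7 lies between 13.1% and 22.4% in Sox2 mutants and below 5% in all other libraries.

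The SV2 genes encode glycoproteins of the vesicle membrane. *Sv2b* (chr7:75114894-75309262) was at 23.8, 22.0 and 27.3 CPM in *Nr2f1* controls and at 10.4, 15.8 and 11.5 CPM in *Nr2f1* mutants. All mutants were below all controls, at 51.8% of their mean level (log2 fold change -0.95, SE 0.15, FDR = 0.00578). In the *Sox2* line it was at 24.8, 20.2 and 14.8 CPM in controls and at 30.1, 25.0 and 26.8 CPM in mutants, which did not pass the test (log2 fold change 0.45, SE 0.16, FDR = 0.0796). The lowest mutant lay just above the highest control. The difference between the lines was 1.41 on the log2 scale (SE 0.25, interaction FDR = 0.00534), and it passed in 4 of 12 fits that left out 1 library. The fall in *Nr2f1* mutants passed in 1 of 6 such fits, with FDR up to 0.0286 in the others.

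Among the other loading genes, *Sv2a* had log2 fold changes of -0.16 and -0.15 in *Sox2* and *Nr2f1* mutants and *Syp* of -0.26 and -0.16, with FDR of 0.0663 or more in each test. *Sv2c* was at 11.8, 10.7 and 12.9 CPM in *Sox2* controls and at 15.4, 19.2 and 24.9 CPM in *Sox2* mutants, just short of the threshold (log2 fold change 0.75, SE 0.16, FDR = 0.0125), and 10 of 22 alternative settings passed it, DESeq2 among them (FDR = 0.000124). Its share of SV2 transcripts per length was 2.45% ± 0.570 in *Sox2* controls and 4.27% ± 1.08 in *Sox2* mutants. In *Nr2f1* mutants its log2 fold change was 0.28 (SE 0.08, FDR = 0.0652). *Slc17a8* stayed below 1 CPM in all 12 libraries. The 7 genes together summed to 967 ± 110 CPM in *Sox2* controls and 777 ± 31.9 in *Sox2* mutants, or 80.4%, and to 1021 ± 30.9 and 931 ± 45.8 in the *Nr2f1* line, or 91.2%.

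Of the 14 docking and priming genes, *Bsn* and *Rims2* fell and *Rab3b* rose in *Sox2* mutants, and *Bsn* and *Unc13b* fell and *Syn2* rose in *Nr2f1* mutants. *Bsn* was the one member called in both lines by the quasi-likelihood fits reported here. DESeq2 also called *Stxbp6*, *Syt1*, *Cplx1*, *Rab3b* and *Vamp1* in both lines. The paper lists *Stxbp6* as downregulated in both mutants. It also used edgeR's quasi-likelihood test with TMM at FDR<0.01, and called more genes per line than the 1261 and 396 called here. The reason for this gap was not tested. Bassoon, a large scaffold protein of the active zone, is encoded by *Bsn* (chr9:108096022-108190419). Its level was 482, 399 and 357 CPM in *Sox2* controls and 297, 283 and 286 CPM in *Sox2* mutants. In the *Nr2f1* line it was at 512, 503 and 514 CPM in controls and at 415, 403 and 380 CPM in mutants. The mutants lay below the controls in both lines, at 70.0% in *Sox2* mutants (log2 fold change -0.51, SE 0.10, FDR = 0.0082) and 78.4% in *Nr2f1* mutants (-0.35, SE 0.05, FDR = 0.00338). The difference between these changes was -0.15 (SE 0.12, interaction FDR = 0.594). Both calls were lost in most fits without 1 library, 5 of 6 in the *Sox2* line (FDR up to 0.0426) and 4 of 6 in the *Nr2f1* line (FDR up to 0.0188). *Pclo*, encoding the related scaffold Piccolo, had log2 fold changes of -0.24 and -0.04, with FDR of 0.216 and 0.755.

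*Rab3b* (chr4:108879070-108943324) encodes a Rab3 GTPase of the vesicle. Its level was 23.6, 24.2 and 16.5 CPM in *Sox2* controls and 52.9, 41.5 and 42.4 CPM in *Sox2* mutants. The groups were far apart, with mutants at 213% of controls (log2 fold change 1.09, SE 0.15, FDR = 0.00122), and the call was kept without any 1 of the 6 libraries. For *Nr2f1* it was at 19.7, 23.4 and 21.3 CPM in controls and at 25.8, 27.1 and 35.4 CPM in mutants, a shift in the same direction that did not pass (log2 fold change 0.45, SE 0.12, FDR = 0.0545). The difference between the lines did not pass either (0.64, SE 0.21, interaction FDR = 0.128). *Rab3b* remained a small part of the Rab3 transcripts, 2.57% ± 0.320 in *Sox2* controls and 5.83% ± 0.372 in *Sox2* mutants per length. *Rab3a* had log2 fold changes of -0.18 and -0.05 and *Rab3c* of 0.05 and 0.15 in *Sox2* and *Nr2f1* mutants, with FDR of 0.149 or more.

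RIM1 and RIM2, encoded by *Rims1* and *Rims2*, bind Rab3 on the vesicle and calcium channels in the membrane. *Rims2* (chr15:39198286-39684372) was at 196, 179 and 159 CPM in *Sox2* controls and at 131, 138 and 130 CPM in *Sox2* mutants. All mutants were below all controls (log2 fold change -0.42, SE 0.08, FDR = 0.00726), but the call was kept in only 1 of 6 fits without 1 library, with FDR up to 0.0419 in the others. In the *Nr2f1* line it was at 221, 194 and 227 CPM in controls and at 193, 202 and 163 CPM in mutants, which overlapped (log2 fold change -0.20, SE 0.09, FDR = 0.184). *Rims1* and *Rims3* had log2 fold changes of -0.23 and -0.19 in *Sox2* mutants and of -0.01 and -0.03 in *Nr2f1* mutants, with FDR of 0.108 or more.

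The Munc13 proteins make docked vesicles ready for fusion. *Unc13b* (chr4:43046193-43264873) was at 103, 104 and 86.9 CPM in *Nr2f1* controls and at 62.8, 73.2 and 68.6 CPM in *Nr2f1* mutants, with every mutant below every control (log2 fold change -0.52, SE 0.08, FDR = 0.00543). The call was kept in 2 of 6 fits without 1 library, with FDR up to 0.0313 in the others. In the *Sox2* line it was at 97.8, 94.3 and 101 CPM in controls and at 87.7, 90.9 and 90.5 CPM in mutants, a difference that did not pass (-0.12, SE 0.06, FDR = 0.175). *Unc13b* made up 33.5% ± 1.5 of Munc13 transcripts per length in *Nr2f1* controls and 27.4% ± 0.889 in *Nr2f1* mutants. Between the lines its change differed by 0.40 (SE 0.10, interaction FDR = 0.0524). *Unc13a* had log2 fold changes of -0.04 and -0.05, and *Unc13c* of -0.53 (FDR = 0.0176) and -0.28 (FDR = 0.142) in *Sox2* and *Nr2f1* mutants.

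The synapsins hold vesicles in the reserve pool. *Syn2* (chr6:115134902-115282626) was at 73.5, 65.6 and 72.0 CPM in *Nr2f1* controls and at 86.4, 97.9 and 102 CPM in *Nr2f1* mutants, all above the controls (log2 fold change 0.44, SE 0.07, FDR = 0.00703). It kept its call in 2 of 6 fits without 1 library, with FDR up to 0.0304 in the others. In the *Sox2* line it was at 65.8, 69.0 and 55.5 CPM in controls and at 86.8, 59.5 and 79.9 CPM in mutants, which overlapped (log2 fold change 0.25, SE 0.13, FDR = 0.219). Its share of synapsin transcripts per length was 12.9% ± 0.157 in *Nr2f1* controls and 16.6% ± 1.88 in *Nr2f1* mutants. *Timp4*, on the opposite strand at a mean of 14.4 CPM, overlaps *Syn2* by gene span. Whether their exons overlap, and so whether reads can be shared, was not examined. The sources used here do not state whether strand was used in counting. Gene spans also overlap on the opposite strand for *Syn3* with *Timp3* (mean 150.03 CPM), *Unc13a* with *Colgalt1* (96.7 CPM) and *Syn1* with *Araf* (89.3 CPM). Further examples are *Syt2* with *Ppp1r12b* (21.6 CPM) and *Vamp1* with *Tapbpl* (8.07 CPM). *Syn1* had log2 fold changes of -0.12 and -0.04 and *Syn3* of 0.28 and 0.20, with FDR of 0.111 or more.

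Of the 9 fusion genes, *Cplx1* fell in *Sox2* mutants and *Stxbp6* in *Nr2f1* mutants. *Stxbp6* (chr12:44852484-45075118) encodes amisyn, which binds syntaxin and SNAP25 in place of synaptobrevin. It was at 70.0, 65.5 and 77.4 CPM in *Nr2f1* controls and at 19.1, 26.2 and 23.7 CPM in *Nr2f1* mutants, or 32.4% of the control mean. This change had the lowest FDR of all members in either line (log2 fold change -1.62, SE 0.11, FDR = 0.000111), and it was kept without any 1 of the 6 libraries. In the *Sox2* line it was at 70.2, 70.6 and 56.8 CPM in controls and at 47.5, 51.3 and 51.1 CPM in mutants. The mutants lay below the controls there too, but by less, and edgeR's quasi-likelihood test was not passed (log2 fold change -0.40, SE 0.09, FDR = 0.0156). In 7 of 22 alternative settings it was, among them DESeq2 (FDR = 0.00108) and the fit without CTRL_3 (FDR = 0.00123). The difference between the lines was 1.23 on the log2 scale (SE 0.15, interaction FDR = 0.000459) and was kept without any 1 of the 12 libraries.

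*Cplx1* (chr5:108518554-108550027) encodes a complexin, a small protein that binds assembled SNARE complexes. It was at 111, 106 and 102 CPM in *Sox2* controls and at 82.3, 72.8 and 76.7 CPM in *Sox2* mutants. The groups were separate, and mutants were at 72.6% of controls (log2 fold change -0.46, SE 0.07, FDR = 0.00187). The call was lost without CTRL_2 (FDR = 0.0133) and without MUT_4 (FDR = 0.014). For *Nr2f1* it was at 110, 106 and 98.1 CPM in controls and at 82.1, 92.7 and 81.9 CPM in mutants, lower in every mutant than in any control but short of the threshold (log2 fold change -0.29, SE 0.07, FDR = 0.0292). Between the lines its change differed by -0.17 (SE 0.09, interaction FDR = 0.426). *Cplx2* had log2 fold changes of -0.06 and -0.21, with FDR of 0.61 and 0.0863, and *Cplx3* was near or below 1 CPM in all libraries. *Cplx1* made up 45.4% ± 0.870 of complexin transcripts per length in *Sox2* controls and 38.6% ± 0.633 in *Sox2* mutants.

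None of the 4 SNARE genes among the members passed edgeR's quasi-likelihood test in either line. DESeq2 and the likelihood ratio and exact tests of edgeR each called 1 of them, *Vamp1*, in both lines (FDR of 0.00725 or less). In each line 2 of the 4 had an unadjusted p below 0.05. *Vamp2*, the most abundant member per length, was at 678, 699 and 609 CPM in *Sox2* controls and at 577, 565 and 548 CPM in *Sox2* mutants (log2 fold change -0.23, SE 0.07, FDR = 0.0516). In the *Nr2f1* line it was at 640, 668 and 662 CPM in controls and at 644, 653 and 580 CPM in mutants, which overlapped. *Vamp1*, encoding synaptobrevin 1, had log2 fold changes of -0.46 (SE 0.11, FDR = 0.018) and -0.42 (SE 0.11, FDR = 0.0419) in *Sox2* and *Nr2f1* mutants. *Snap25* had -0.11 and -0.18 and *Stx1a* -0.10 and -0.01, with FDR of 0.0514 or more. *Stxbp5l*, encoding tomosyn 2, was below 10 CPM in all libraries, with log2 fold changes of 0.83 (FDR = 0.0843) and 0.42 (FDR = 0.302). The 9 fusion genes summed to 87.9% and 89.8% of their control level in *Sox2* and *Nr2f1* mutants.

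Of the 8 synaptotagmins, *Syt1* alone was called, and in *Sox2* mutants. *Syt1* (chr10:108497650-109010980) encodes the calcium sensor of fast synchronous release. It was at 790, 730 and 578 CPM in *Sox2* controls and at 357, 364 and 340 CPM in *Sox2* mutants. The mutants were at 50.6% of the control mean and lay close to each other (log2 fold change -0.98, SE 0.11, FDR = 0.000375), and the call was kept without any 1 of the 6 libraries. *Nr2f1* controls were at 768, 690 and 822 CPM and *Nr2f1* mutants at 531, 602 and 479 CPM. All mutants were again below all controls, at 70.7%, but the test was narrowly missed (log2 fold change -0.50, SE 0.09, FDR = 0.0107), and 9 of 20 alternative settings passed it, DESeq2 among them (FDR = 2.91e-07). The difference between the lines was -0.48 (SE 0.15, interaction FDR = 0.114).

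None of the other synaptotagmins passed the quasi-likelihood test of edgeR in either line. *Syt7*, the slow sensor of high affinity, was at 468, 465 and 428 CPM in *Sox2* controls and at 410, 388 and 393 CPM in *Sox2* mutants (log2 fold change -0.19, SE 0.07, FDR = 0.074). *Nr2f1* controls were at 471, 531 and 501 CPM and *Nr2f1* mutants at 647, 597 and 521 CPM (0.23, SE 0.08, FDR = 0.113), so that its estimates had opposite signs, with a difference of -0.42 (SE 0.10, interaction FDR = 0.0458) that did not pass. Log2 fold changes of the remaining 6 lay between -0.14 and 0.69 in *Sox2* mutants and between -0.58 and 0.41 in *Nr2f1* mutants, with FDR of 0.0645 or more. The widest of these belonged to *Syt2* and *Syt6*, which were below 10 CPM in all libraries. Per length, *Syt1* made up 23.3% ± 1.84 of the 8 synaptotagmins in *Sox2* controls and 14.3% ± 0.554 in *Sox2* mutants, and 24.1% ± 2.04 and 16.8% ± 1.22 in the *Nr2f1* line. At an unadjusted p below 0.05 stood 3 of the 8 in *Sox2* mutants, *Syt1* included, and 3 in *Nr2f1* mutants, and DESeq2 called 1 in each line, *Syt1*.

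**Figure D3:**
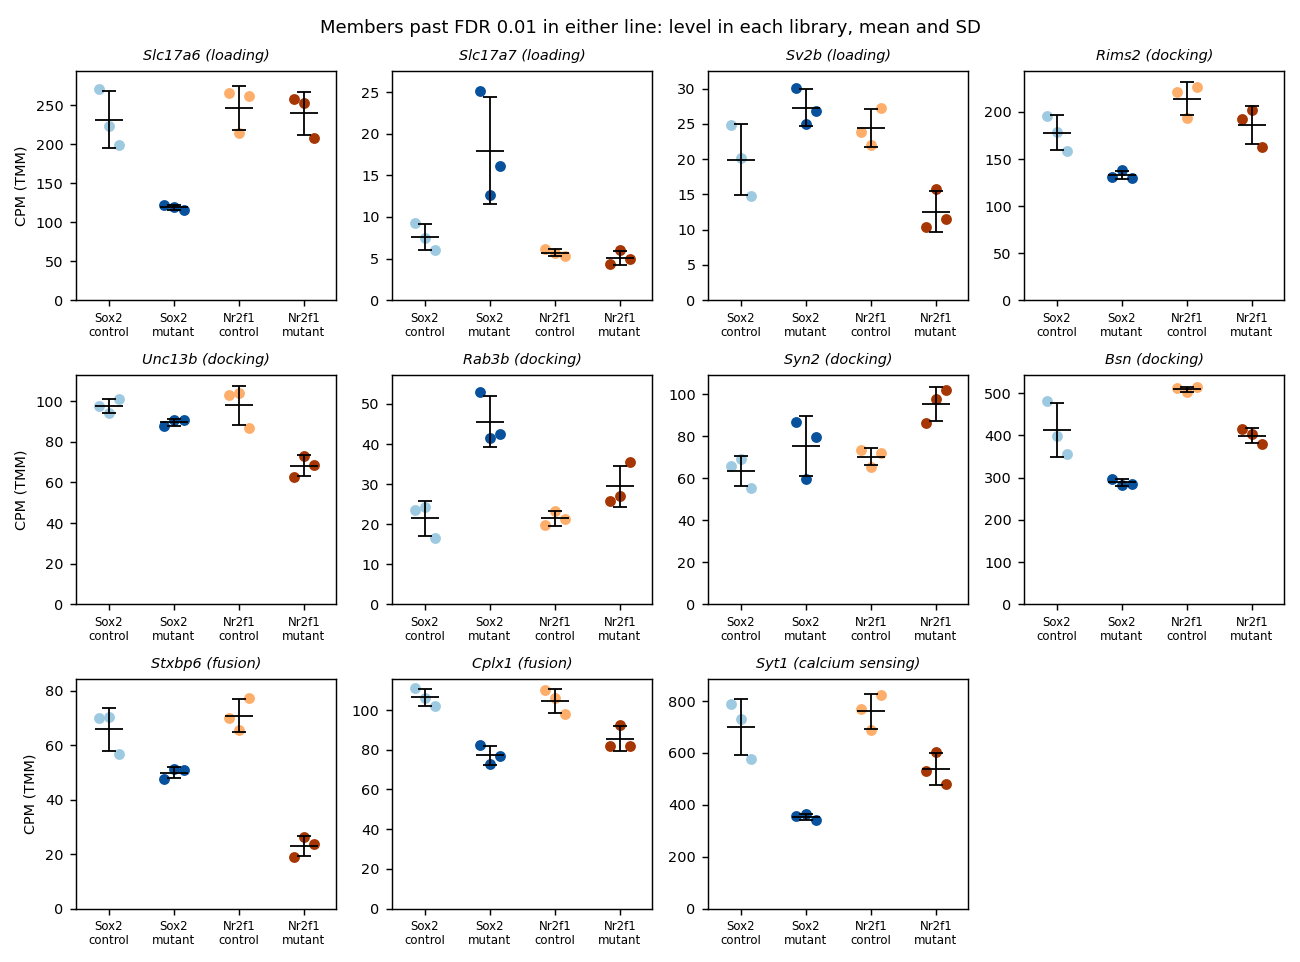
Level of the 11 members called in either line or in the interaction, in CPM after TMM normalization, in each library (points), with mean and SD of each group of 3. Slc17a6 and Syt1 in Sox2 mutants and Stxbp6 in Nr2f1 mutants lie well below their controls, and Rab3b in Sox2 mutants lies above them.

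Over the whole list, the median log2 fold change of the 38 members was -0.12 in *Sox2* mutants and -0.04 in *Nr2f1* mutants, and the median over all genes tested was 0.00 and 0.01. Estimates below 0 were found for 25 and 26 of the 38. Members that missed the quasi-likelihood test and passed DESeq2 were *Stxbp6*, *Sv2c*, *Unc13c* and *Vamp1* in *Sox2* mutants, *Syt1*, *Cplx1*, *Rab3b* and *Vamp1* in *Nr2f1* mutants (FDR of 0.0043 or less), and *Slc17a7*, *Syt7* and *Unc13b* in the interaction (FDR of 0.00973 or less). By step, the medians in *Sox2* mutants were 0.45 for loading, -0.15 for docking, -0.11 for fusion and -0.09 for calcium sensing, and in *Nr2f1* mutants -0.15, -0.04, -0.18 and 0.01. The sum of all members was 6858 ± 631 CPM in *Sox2* controls and 5854 ± 231 in *Sox2* mutants (85.4%), and 7240 ± 112 and 6742 ± 282 in the *Nr2f1* line (93.1%). In the loading step of *Sox2* mutants the median was above 0 although the sum fell, since the scarce genes *Slc17a7*, *Slc17a8*, *Sv2b* and *Sv2c* had estimates above 0 and the abundant ones below.

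**Figure D4:**
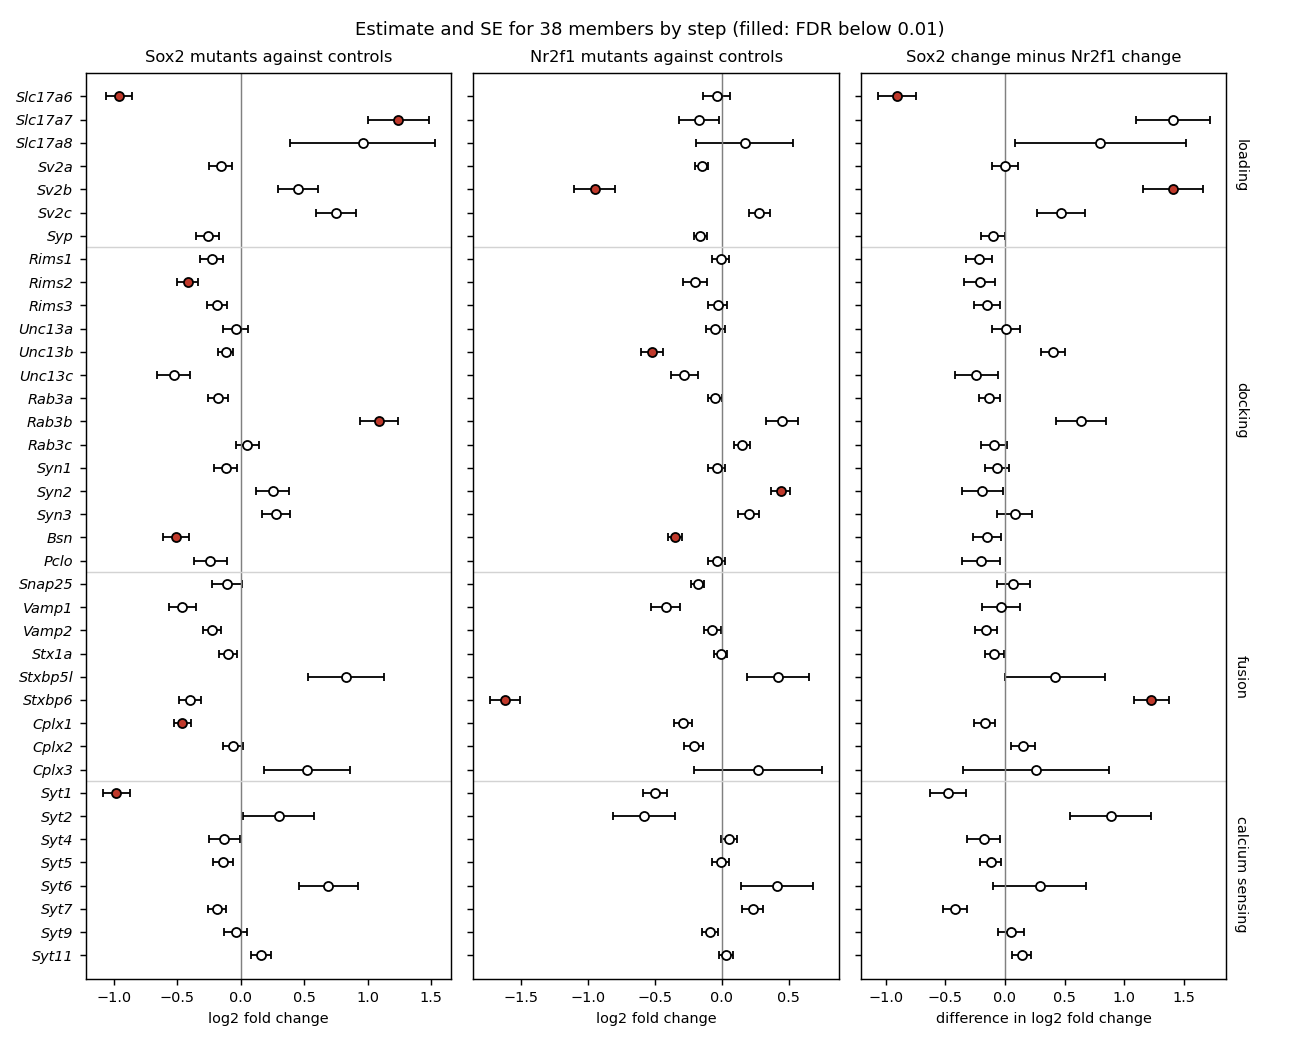
Log2 fold change with SE of the 38 members, ordered by step, in Sox2 mutants, in Nr2f1 mutants and for the Sox2 change less the Nr2f1 change. Filled points have an FDR below 0.01, which holds for 7, 5 and 3 members.

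Of 12 markers of neurons of any kind, none of them a member, edgeR called 2 downregulated in *Sox2* mutants and 1 in *Nr2f1* mutants, and 2 in each line had estimates above 0. The 12 genes summed to 13250, 13656 and 11643 CPM in *Sox2* controls and to 12115, 11575 and 11475 CPM in *Sox2* mutants, or 91.2%, with MUT_1 above CTRL_3, and none of the genes was at 0. In *Nr2f1* mutants the sum was 90.5% of that in controls. The mean log2 level of the list did not overlap between controls and mutants in either line, so that a fit with this mean as a covariate, added after seeing the data, can hardly separate it from genotype. In that fit edgeR called 0 of the 38 members in either line, with 14 and 10 members at an unadjusted p below 0.05, and 31 and 4 genes of all were called. The part of neuron content in the changes of the members was not tested further. CTRL_3 had the lowest neuron and member sums of the *Sox2* controls, and without it 9 members were downregulated in *Sox2* mutants in place of 5, with *Stxbp6*, *Vamp2*, *Syp* and *Pclo* among them. Of all genes, 2161 were called in *Sox2* mutants without CTRL_3 and 1261 with it.

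**Figure D5:**
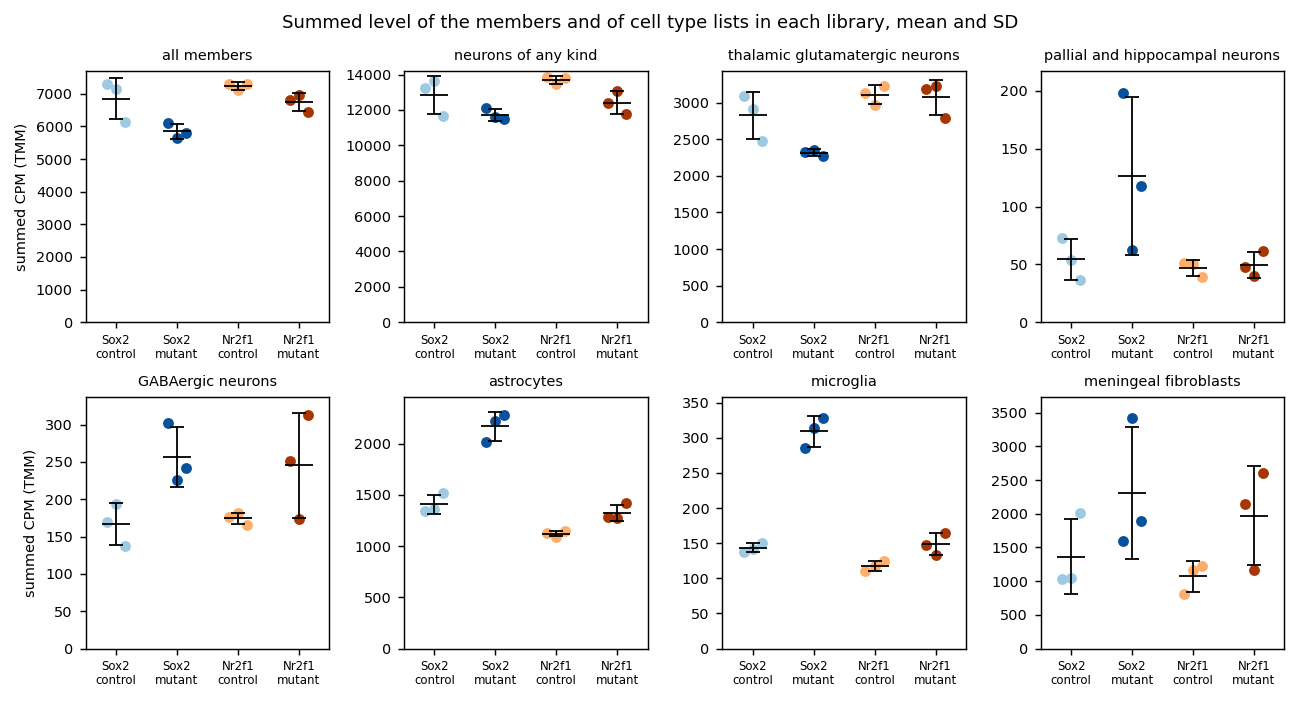
Summed level in CPM of the 38 members and of 7 lists of cell type markers in each library (points), with mean and SD of each group of 3. Microglial and astrocyte sums are higher in Sox2 mutants than in their controls, and pallial and hippocampal sums reach 198 CPM in MUT_1 of the Sox2 line.

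A list of 97 other genes of vesicle loading, docking, fusion, calcium sensing and recycling, chosen for their known function, was read in the same tests. In *Sox2* mutants 94 were tested, 5 were downregulated and 8 upregulated, beside 4.19% and 3.90% of all genes tested. The largest fall was that of *Slc18a2* (log2 fold change -1.71, SE 0.08, FDR = 8.27e-06), which encodes the vesicular monoamine transporter VMAT2 that sensory thalamic neurons express for a time around birth. *Rims4* (-0.85, SE 0.09), a short RIM gene, *Stxbp4* (-0.65, SE 0.08), encoding a syntaxin-binding protein, and *Syt13* (-0.63, SE 0.08), a synaptotagmin gene, also fell. *Baiap3* (1.45, SE 0.17), a relative of the Munc13 genes, *Cadps2* (0.82, SE 0.10), a priming factor of dense-core vesicles, and *Ston2* (0.53, SE 0.07), an endocytic adaptor, rose. These 7 genes had FDR of 0.00102 or less by edgeR. As among the members, genes acting at one step moved in both directions.

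In *Nr2f1* mutants 95 of the other release genes were tested, 2 were downregulated and 2 upregulated, beside 1.32% and 1.22% of all genes tested. *Stxbp2* (log2 fold change -0.79, SE 0.08), encoding a Munc18 protein that binds syntaxins, and *Cadps* (-0.34, SE 0.06), the priming factor CAPS1, fell. *Baiap3* (1.12, SE 0.12) and *Amph* (0.43, SE 0.05), encoding amphiphysin of the endocytic machinery, rose, all with an edgeR FDR of 0.00625 or less. *Baiap3* was called upward in both lines, from 8.67 ± 1.25 to 23.8 ± 5.23 CPM in *Sox2* mutants and from 8.95 ± 0.942 to 19.4 ± 2.21 CPM in *Nr2f1* mutants (SD, n = 3). In the interaction, *Slc18a2* (-1.79, SE 0.12), *Stxbp4* (-0.75, SE 0.12) and *Syt13* (-0.57, SE 0.11) passed, each with a lower estimate in *Sox2* than in *Nr2f1* mutants and an edgeR FDR of 0.0086 or less.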

How the data were processed

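The authors deposited RSEM expected counts by gene, 1 table for each line, and these were the starting point. As the methods of the study state, the authors aligned paired reads with STAR to the RefSeq mouse transcriptome (mm10 per the labels) and estimated counts with RSEM, the versions of which are not given in the sources used here, nor is the use of strand in counting. Of the values, 7.77% were not whole, and all were rounded. Libraries were assigned to groups by the group named in their column. Counts were filtered (filterByExpr, minimum count 10, minimum total count 15), normalized by TMM and tested by quasi-likelihood in edgeR 4.0.16 (glmQLFit and glmQLFTest) with limma 3.58.1 and R 4.3.3, each line in its own fit without a block, at FDR<0.01 with Benjamini-Hochberg adjustment over all genes tested. The interaction was fitted over the 12 libraries. Levels are CPM, given as mean ± SD over 3 libraries, and CPM per kb uses the median length of GENCODE M21 transcripts that match RefSeq mRNAs. With 3 pools against 3, an exact permutation test of 1 gene cannot give a two-sided p below 0.1. The fits were tested on simulated counts with known changes, where the share of false calls was above the FDR threshold in the fits of single lines and below it in the interaction.

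The members and the lists of other release genes and of cell type markers were chosen with earlier results of these data known. Members past FDR 0.01 in either line or in the interaction were described in each library, the others by examples and ranges, and at most 8 of the other release genes were named per line by FDR, 1 of which is not reported here. *Sv2c*, *Vamp2* and *Syt7* were given by library after their values were seen. The alternatives were other filters and normalizations, DESeq2 1.42.0, other tests of edgeR, FDR<0.05, one fit over 12 libraries, covariates for male-specific and meningeal genes, a replicate block and leaving out each library. Covariates for neuron and pallial markers, and leaving out CTRL_3 and MUT_3 of the *Sox2* line together, were added after seeing the data. Promoter windows and gene positions came from RefSeq annotation of GRCm38.p6.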

Additional observations from a re-analysis of the deposited data

Results flagged for a closer look

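For 3 members the difference between the effects of the *Sox2* and *Nr2f1* deletions passed FDR<0.01 when it was itself tested over the 12 libraries. *Slc17a6* had a difference of -0.91 on the log2 scale (edgeR interaction FDR = 0.00467), with a fall in *Sox2* mutants and overlapping groups in the *Nr2f1* line. *Stxbp6* had a difference of 1.23 (FDR = 0.000459), with a fall to 32.4% of controls in *Nr2f1* mutants and a level of 75.8% of controls in *Sox2* mutants, which missed the threshold (edgeR quasi-likelihood FDR = 0.0156). *Sv2b* had a difference of 1.41 (FDR = 0.00534), with estimates of opposite sign, of which the one in *Nr2f1* mutants passed the test. In the 12 fits without 1 library, *Slc17a6* passed in 2, *Sv2b* in 4 and *Stxbp6* in all 12. With male-specific genes as covariate only *Stxbp6* passed (edgeR interaction FDR = 0.0341 for *Slc17a6* and 0.0413 for *Sv2b*). Markers of pallial and hippocampal neurons summed to 233% of controls in *Sox2* mutants and to 106% in *Nr2f1* mutants, with MUT_3 of the *Sox2* line (62.7 CPM) below CTRL_1 (72.4 CPM). Of the 10 genes 1 was upregulated in *Sox2* mutants, and 0 passed the interaction in edgeR or DESeq2, with 4 and 5 at an unadjusted p below 0.05. Their part in the differences above was not tested.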

How the results depend on the processing

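Upper quartile and RLE normalization kept the counts of members called within 1.5 times of those reported, as did a filter of at least 10 counts in every library and no filter. At FDR<0.05 the members called were 8 down in *Sox2* mutants, 7 down in *Nr2f1* mutants and 5 in the interaction, and the other release genes called were 26 and 12. DESeq2 called 8 down in *Sox2* mutants, 7 down and 2 up in *Nr2f1* mutants, 6 in the interaction, and 20 and 11 other release genes. Of all genes, the fits reported above called 1261 in *Sox2* mutants, 396 in *Nr2f1* mutants and 231 in the interaction. These totals moved with the setting as well, to 3095, 1154 and 538 at FDR<0.05 and to 2468, 1112 and 544 by DESeq2. The likelihood ratio and exact tests of edgeR called 8 and 7 members down in *Sox2* and *Nr2f1* mutants, and 9 other release genes in *Nr2f1* mutants. Of all genes they called 2351 and 2324 in *Sox2* mutants and 1089 and 1068 in *Nr2f1* mutants. With male-specific genes as covariate the counts were 3 down in *Sox2* mutants, 1 down and 0 up in *Nr2f1* mutants, 1 in the interaction, and 1 other release gene in *Nr2f1* mutants. With meningeal genes as covariate they were 3 down and 6 up in *Sox2* mutants, 1 down and 0 up in *Nr2f1* mutants, and 1 other release gene in *Nr2f1* mutants. Of all genes, 864 in *Sox2* mutants, 84 in *Nr2f1* mutants and 117 in the interaction were called with the male-specific covariate. The meningeal covariate gave 977, 81 and 362 in the same order. With neuron markers as covariate they were 0 down and 0 up in both lines, 1 and 0 other release genes, and 31 and 4 of all genes. With pallial markers as covariate 1 member was up in *Sox2* mutants, and one fit over all 12 libraries gave 0 up in *Nr2f1* mutants. These fits called 1465 and 430 of all genes. Without CTRL_3 and MUT_3 of the *Sox2* line, 11 members were down and 4 up, and 33 other release genes were called, as were 2788 of all genes. *Syn2*, the one member reported up in *Nr2f1* mutants, had an FDR between 0.0121 and 0.285 by edgeR wherever it was not called. The causes of these shifts were not tested. A covariate leaves fewer residual degrees of freedom, and the part of this in the shifts was not tested either.

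Leaving out each library in turn, 2 to 9 members were down and 1 to 3 up in *Sox2* mutants, and 9 to 23 other release genes were called. In *Nr2f1* mutants 1 to 6 members were down and 0 to 1 up, and 2 to 8 other release genes were called. In the interaction 1 to 3 members passed. Of all genes, 494 to 2161 were called in *Sox2* mutants, 133 to 868 in *Nr2f1* mutants and 133 to 308 in the interaction. Among the members called in either line or in the interaction, estimates that changed sign had not passed the test. *Syn2* in *Sox2* mutants was -0.10 with pallial markers as covariate. In *Nr2f1* mutants *Slc17a6* was 0.10 with meningeal and 0.23 with neuron markers as covariate, and -0.14 to 0.05 without 1 library. *Slc17a7* there was 0.09 and 0.24 with these covariates, and *Rims2* was 0.08 with neuron markers. Members without a call changed sign over the alternatives as well. Examples are *Syt4* (-0.34 to 0.44) and *Snap25* (-0.37 to 0.38) in *Sox2* mutants. Others are *Unc13c* (-0.37 to 0.16) and *Syt6* (-0.92 to 0.68) in *Nr2f1* mutants.

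Columns of the *Sox2* line share the numbers 1 and 3 between controls and mutants, but neither the labels nor the data establish that these pair the samples. With a replicate block over them, 5 members were down and 5 up, and 1611 of all genes were called. CTRL_2 and MUT_4 were each alone in a block, so that the genotype effect in this fit rests on CTRL_1, CTRL_3, MUT_1 and MUT_3. No paired analysis was possible for the *Nr2f1* line because its groups share only the letter B. Counts for genes below 1 CPM limit what can be said of *Slc17a8* and *Cplx3*.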

Other observations

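Other markers in the same libraries moved as follows. GABAergic neuron markers summed to 154% of controls in *Sox2* mutants and 141% in *Nr2f1* mutants, with 1 of 11 genes upregulated in *Sox2* mutants. Habenula markers summed to 53.9% and 78.5%, with 2 of 6 genes downregulated in *Sox2* mutants, the 2 most abundant. The other 4 genes tested had estimates above 0 in both lines, and the median log2 fold change of the 6 was 0.32 and 0.52. Sums of endothelial (134% and 134%), pericyte (130% and 119%), oligodendrocyte lineage (117% and 105%), red blood cell (105% and 115%) and dividing cell markers (127% and 106%) are given for *Sox2* and *Nr2f1* mutants. Thalamic glutamatergic neuron markers summed to 82.1% and 98.8% of controls, with 4 of 10 genes downregulated and 1 upregulated in *Sox2* mutants and 1 in each direction in *Nr2f1* mutants.

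Of the 22 recycling genes among the other release genes, which take up vesicle membrane after fusion, 1 fell and 1 rose in *Sox2* mutants and 1 rose in *Nr2f1* mutants. Their median log2 fold change was 0.01 and -0.01, and their sum was 95.3% and 97.5% of controls. These values are a description with no test.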
